A study of Mus musculus with 7 samples.

Results

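The genes described are 10 heat-shock proteins and co-chaperones, taken by symbol from the deposited count table of 55487 gene identifiers: Hspa1a, Hspa1b, Hspa8, Hsph1, Dnajb1, Bag3, Hspb1, Hsp90aa1, Hspd1 and Hspe1. Each symbol was found, and all 10 passed the filter on low counts together with 16203 genes in all. RNA came from isolated mouse pancreatic islets of 4 control mice and 3 mice labelled Traf6 KO, described in the series as lacking Traf6 in beta cells only. All mice had eaten a 60% high-fat diet for 15 weeks, and all islets had rested for 24 hours in culture medium before RNA was taken. The recombinase driver, the control alleles, age and sex are not stated in the labels used. A beta-cell list of hormone, transcription factor and other markers had a mean log2(CPM + 1) of 10.0 to 10.6 in every library, so islet material was present in each. The beta-cell mean was 9.998 to 10.25 in Traf6 KO and 10.38 to 10.56 in control, ranges that did not overlap. Islets hold other cells too, and the libraries were not islet tissue alone. In control 1 and Traf6 KO 1 and 2 acinar markers had the higher mean, at 10.9, 13.3 and 12.4.

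Heat-shock proteins bind unfolded stretches of other proteins and keep them from clumping. In the cytosol, HSP70 proteins work in cycles of ATP hydrolysis that J-domain proteins such as Dnajb1 start and that exchange factors such as Hsph1 and Bag3 end, and HSP90 takes over partly folded clients. In mitochondria the barrel of Hspd1 (HSP60) and its lid Hspe1 (HSP10) fold imported proteins. Several of these genes are switched on by heat-shock factor 1 (HSF1) when proteins unfold, and HSP70 induction also occurs when tissue is cut, digested or cultured.

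The libraries held 22104256 to 29917292 counts. CPM below is the count scaled to the library's TMM-adjusted total, and ± is SD for CPM and SE for log2 fold changes. Exocrine transcripts differed widely, with 25 acinar markers taking 50.9% and 39.7% of counts in Traf6 KO 1 and 2, 18.1% in control 1 and 0.433% to 3.02% in the other 4 libraries. In a bulk sample, fewer cells of a type and less RNA per cell cannot be told apart. Traf6 itself stood at 17.9, 25.5, 22.1 and 12.6 CPM in controls 1 to 4 and at 14.7, 15.3 and 14.5 CPM in Traf6 KO 1 to 3 (log2 fold change -0.40 ± 0.22, edgeR adjusted p = 0.416). The library labelled control 4 lay below every Traf6 KO library for the targeted gene, so this gene does not bear out its label. Directions below include control 4 among the controls, except in the fits that leave it out, such as that of Q- and R-tagged libraries. The count covers the whole gene, and a deleted exon is not seen apart.

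Library Traf6 KO 3 stands apart from all others in these genes. The 10 chaperones took 1.68% of its counts, against 0.606% and 0.539% in controls 2 and 3, 0.215% and 0.236% in controls 1 and 4, and 0.0847% and 0.133% in Traf6 KO 1 and 2 (exact 95% binomial interval 1.672% to 1.683% in Traf6 KO 3 and 0.0835% to 0.0859% in Traf6 KO 1, counting error only). Each of the 10 had its highest level in Traf6 KO 3, where 21% of all tested genes did. Each was also at least 2-fold above the median of the other 6 libraries on the log2(CPM + 1) scale, as were 3.02% of all tested genes. Traf6 KO 3 also had 421 CPM of Xist, the RNA of the inactive X chromosome, against at most 0.388 CPM in the others, and its name carries a tag with the letter S, as does that of control 4, while the others carry Q or R. The labels do not say what the letters mean. The singling out of this library was made after values were seen, and the part of sex or tag series in its levels was not tested. Mitochondrial transcripts took 3.41% of counts in Traf6 KO 3 and 3.23% in control 4, against 0.921% to 1.97% in the other libraries, and their part was not tested either. Results follow with it and without it.

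**Figure D1:**
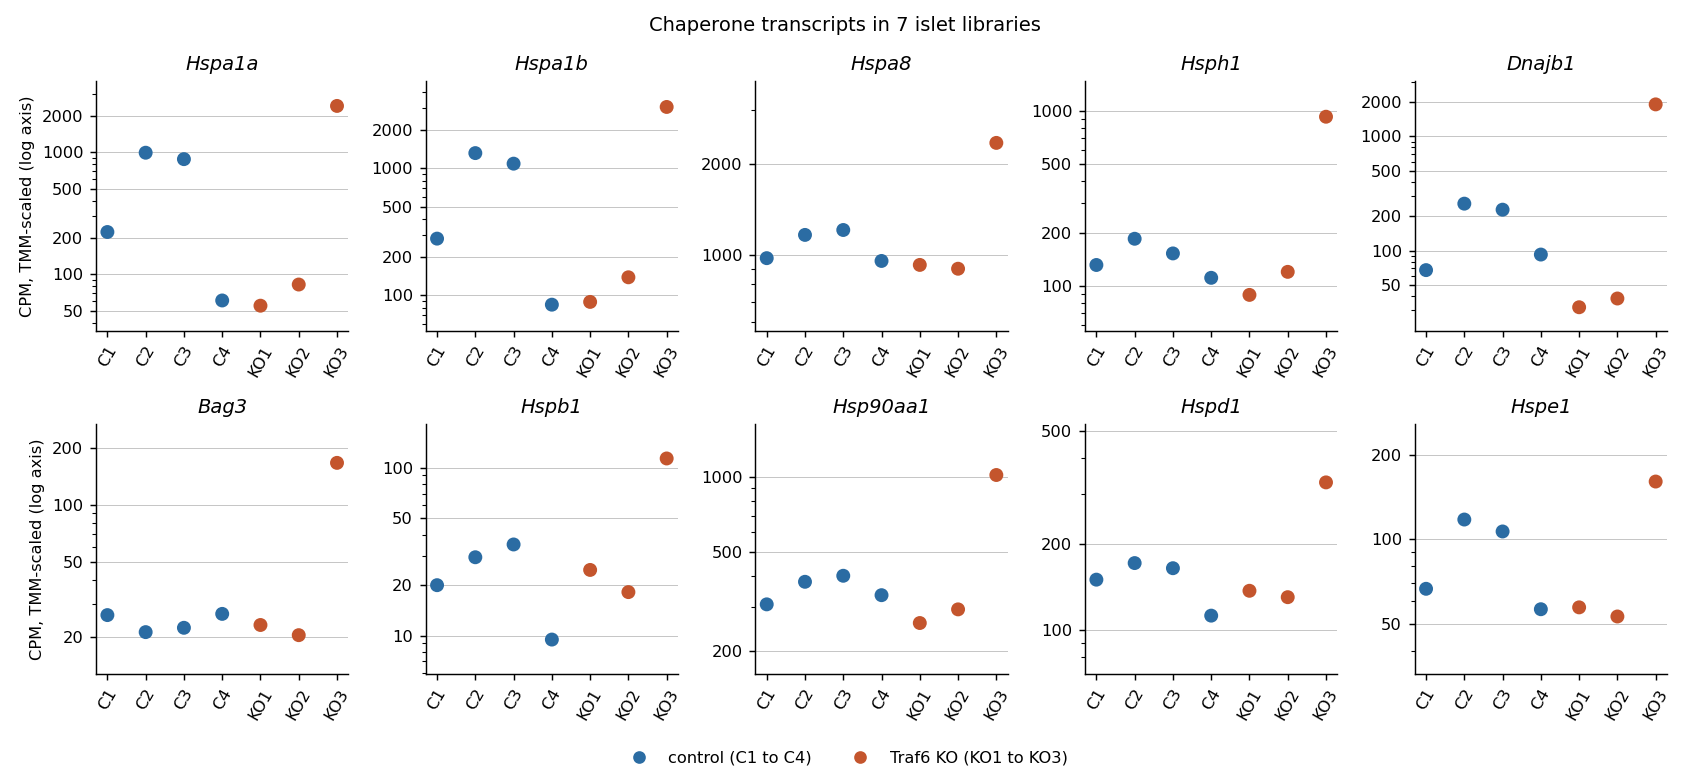
Level of each of the 10 chaperone transcripts in each library, as TMM-scaled CPM on a log axis whose range differs between panels; blue points are controls 1 to 4 and orange points Traf6 KO 1 to 3. In every panel Traf6 KO 3 is the highest point, and in Hspa1a, Hspa1b and Dnajb1 controls 2 and 3 come next, well above the other 4 libraries.

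No chaperone differed between genotypes by the test across all genes. Of the 10 genes, 0 had an edgeR adjusted p under 0.05, as had 0% of the 16203 tested, and 0 had an unadjusted p under 0.05, as had 16% of those genes. Limma-voom also called 0 of the 10, and the DESeq2 Wald test 0 of the 7 to which it gave an adjusted p, which left out Hsph1, Dnajb1 and Bag3. The smallest edgeR adjusted p was 0.317, for Bag3. The genotypes overlapped in all 10: none had its Traf6 KO libraries all above the controls, where 5.58% of tested genes did, and none all below, where 8.68% did. All 10 log2 fold changes were above 0, with a median of 0.65 beside 0.01 over all genes tested, and all 10 were below 0 without Traf6 KO 3, with a median of -0.42. Hspe1, at 0.06, turned to -0.16 when libraries were scaled by their totals alone, which moved the median of all genes to -0.46, and the other 9 kept their sign under each scaling tried. For each of the 10 the SD among Traf6 KO libraries exceeded the difference between genotype means.

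The inducible HSP70 genes Hspa1a (ENSMUSG00000091971, chromosome 17, 34969190 to 34972156, minus strand) and Hspa1b (ENSMUSG00000090877, chromosome 17, 34956436 to 34959238, minus strand, both on GRCm38 and protein-coding) are neighbouring copies that encode the stress-inducible cytosolic HSP70. Hspa1b stood at 280, 1321, 1091 and 84.6 CPM in controls 1 to 4 and at 88.9, 139 and 3049 CPM in Traf6 KO 1 to 3. Hspa1a stood at 222, 994, 880 and 61.1 CPM in the same controls and at 55.4, 82.6 and 2404 CPM in Traf6 KO 1 to 3. The genotypes overlapped in full: controls 2 and 3 and Traf6 KO 3 were high, control 1 was intermediate, and control 4 and Traf6 KO 1 and 2 were low. Within control the highest library exceeded the lowest 16.3-fold for Hspa1a and 15.6-fold for Hspa1b. The log2 fold changes were 0.65 ± 1.35 for Hspa1a and 0.65 ± 1.29 for Hspa1b (edgeR adjusted p = 0.846 and 0.837), and without Traf6 KO 3 they were -2.97 ± 1.08 and -2.61 ± 1.05 (edgeR adjusted p = 0.155 and 0.189).

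Reads of these copies can be assigned to either. Of 2817 windows of 151 bases, the read length, along the longest Hspa1a transcript, 1069 (37.9%) also occur in Hspa1b, and none occurs in Hspa8. Their sum, which does not depend on that split, was 503, 2315, 1971 and 146 CPM in controls 1 to 4 and 144, 222 and 5453 CPM in Traf6 KO 1 to 3. On the log2 scale the 4 controls averaged 9.57 ± 1.87 (SD) and the 3 Traf6 KO libraries 9.13 ± 2.86 (SD). Permuting the genotype labels exactly, with both tails counted, gave p = 0.9143 for the difference of -0.44, and the smallest p this design allows is 0.0571. It is opposite in sign to the edgeR value, which weighs the mean count rather than the mean logarithm, and it was -2.09 without Traf6 KO 3. Hspa1l (a neighbouring HSP70 gene known from testis) stood at 0.911, 1.34, 0.907 and 0.141 CPM in controls 1 to 4 and at 0.181, 0.162 and 4.92 CPM in Traf6 KO 1 to 3, and 2.95% of Hspa1a windows also occur in it.

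The sequences just before the start sites of both copies are shown because the pair moved together over all 7 libraries. They come from RefSeq on GRCm38.p6, run 5′ to 3′ and end at the base before the start site, at chr17:34972157-34972406 for Hspa1a and chr17:34959239-34959488 for Hspa1b, minus strand. Capitals mark GAANNTTC, a pair of inverted units of the heat-shock element to which HSF1 binds.
Hspa1a: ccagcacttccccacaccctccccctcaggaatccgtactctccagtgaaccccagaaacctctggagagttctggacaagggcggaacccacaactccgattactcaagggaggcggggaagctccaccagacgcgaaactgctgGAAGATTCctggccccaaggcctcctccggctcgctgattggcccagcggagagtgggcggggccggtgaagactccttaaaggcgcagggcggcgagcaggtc
Hspa1b: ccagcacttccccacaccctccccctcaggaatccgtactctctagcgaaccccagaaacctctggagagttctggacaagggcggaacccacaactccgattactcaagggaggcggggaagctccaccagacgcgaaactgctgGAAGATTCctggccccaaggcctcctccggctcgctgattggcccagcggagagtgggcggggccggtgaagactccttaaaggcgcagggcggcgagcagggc
These stretches of 250 bases differ at 3 positions, and each holds the pair at -104 to -97 from the start site. The pair in either arrangement (GAANNTTC or TTCNNGAA, each its own reverse complement) was found in 15.1% of 32851 RefSeq promoter windows of 300 bases, 250 before and 50 after the start. Of 8 chaperones with an entry, 7 held it: Hspa1a, Hspa1b, Hsph1, Hspb1, Hspd1, Hspe1 and Bag3. Counted by window it was found at 8 of 11 start sites. These are not all separate finds, as some of the windows share sequence. In Bag3 the pair lies after the start site, at positions 43 to 50. Neither Dnajb1 window holds these letters. Hspa8 and Hsp90aa1 had no entry.

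Dnajb1 (ENSMUSG00000005483, chromosome 8, 83608193 to 83612653), the J-domain partner that delivers unfolded proteins to inducible HSP70, had the widest range of the 10. It stood at 67.6, 258, 228 and 92.5 CPM in controls 1 to 4 and at 32.0, 38.2 and 1901 CPM in Traf6 KO 1 to 3. The order of libraries resembled that of Hspa1a and Hspa1b, with Traf6 KO 3 on top, 7.38-fold above the next library, and Traf6 KO 1 and 2 lowest. The highest level exceeded the lowest 59.3-fold. Its log2 fold change came to 2.02 ± 1.301, and to -2.20 ± 0.58 without Traf6 KO 3 (edgeR adjusted p = 0.471 and 0.0769).

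Bag3 and Hsph1, which release substrates from HSP70 and, in the case of Bag3, pass them to autophagy, had another pattern. Bag3 (ENSMUSG00000030847, chromosome 7, 128523616 to 128546981) stood at 26.1, 21.2, 22.4 and 26.5 CPM in controls 1 to 4 and at 23.2, 20.5 and 166 CPM in Traf6 KO 1 to 3. The other 6 libraries lay close together, within 1.25-fold in control, and Traf6 KO 3 lay 6.28-fold above the next. Controls 2 and 3, high in Hspa1a and Hspa1b, were the lower of the 4 controls in Bag3. Its log2 fold change was 1.55 ± 0.68 with all libraries and -0.14 ± 0.13 without Traf6 KO 3 (edgeR adjusted p = 0.317 and 0.558). Hsph1 (ENSMUSG00000029657, chromosome 5, 149614287 to 149636376), the HSP110 exchange factor, stood at 132, 186, 154 and 111 CPM in controls 1 to 4 and at 89.0, 121 and 930 CPM in Traf6 KO 1 to 3. Controls 2 and 3 were again the highest after Traf6 KO 3, but only by a small margin. The log2 fold change was 1.38 ± 0.74, and -0.48 ± 0.23 without Traf6 KO 3 (edgeR adjusted p = 0.392 and 0.253).

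Hspb1 (ENSMUSG00000004951, chromosome 5, 135887919 to 135889563) encodes HSP27, a small heat-shock protein that holds unfolded proteins without using ATP. It stood at 19.96, 29.3, 34.9 and 9.46 CPM in controls 1 to 4 and at 24.6, 18.1 and 114 CPM in Traf6 KO 1 to 3. Control 4 was the lowest and Traf6 KO 3 the highest, 12.02-fold apart, and both carry tag letter S. The log2 fold change was 1.16 ± 0.67, and -0.14 ± 0.46 without Traf6 KO 3 (edgeR adjusted p = 0.422 and 0.883). Its upstream stretch (RefSeq, GRCm38.p6, chr5:135887719-135887918, plus strand) is shown because it holds the element pair in 2 places, in capitals.
Hspb1: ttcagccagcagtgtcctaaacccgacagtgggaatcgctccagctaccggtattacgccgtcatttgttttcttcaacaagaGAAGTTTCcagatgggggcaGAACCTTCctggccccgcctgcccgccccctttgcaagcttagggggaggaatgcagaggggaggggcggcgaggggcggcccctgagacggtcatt

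Hspa8 and Hsp90aa1 are the abundant cytosolic chaperones, HSC70 and the inducible HSP90 form. Hspa8 (ENSMUSG00000015656, chromosome 9, 40800984 to 40810087) stood at 976, 1164, 1208 and 955 CPM in controls 1 to 4 and at 927, 900 and 2342 CPM in Traf6 KO 1 to 3. Hsp90aa1 (ENSMUSG00000021270, chromosome 12, 110690605 to 110702728) stood at 308, 379, 401 and 335 CPM in the controls and at 259, 294 and 1019 CPM in Traf6 KO 1 to 3. Controls differed at most 1.27-fold in Hspa8 and 1.303-fold in Hsp90aa1, and in both genes Traf6 KO 1 and 2 lay below every control. The log2 fold changes were 0.37 ± 0.36 and 0.56 ± 0.46 with all libraries (edgeR adjusted p = 0.640 and 0.571) and -0.24 ± 0.20 and -0.37 ± 0.16 without Traf6 KO 3 (edgeR adjusted p = 0.518 and 0.231).

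The mitochondrial pair Hspd1 (ENSMUSG00000025980, chromosome 1, 55077835 to 55088243, minus strand) and Hspe1 (ENSMUSG00000073676, chromosome 1, 55088132 to 55091307, plus strand) lie head to head, and their annotated ends overlap, so without a stated strand setting reads in the overlap cannot be told apart. Hspd1 stood at 150, 171, 164 and 112 CPM in controls 1 to 4 and at 137, 130 and 329 CPM in Traf6 KO 1 to 3. Hspe1 stood at 66.6, 117, 107 and 56.3 CPM in the controls and at 57.2, 53.0 and 160 CPM in Traf6 KO 1 to 3. In Hspe1, controls 2 and 3 were set off from the other controls, as in the inducible HSP70 genes, and in Hspd1 they were less so. The log2 fold changes were 0.41 ± 0.34 for Hspd1 and 0.06 ± 0.44 for Hspe1 (edgeR adjusted p = 0.571 and 0.960), and without Traf6 KO 3 they were -0.16 ± 0.18 and -0.66 ± 0.30 (edgeR adjusted p = 0.626 and 0.244).

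The stretch upstream of Hspe1 (RefSeq, GRCm38.p6, chr1:55087948-55088147, plus strand) is shown because it fills most of the gap between the start site of Hspe1 and an Hspd1 start site 216 bases away. Another annotated Hspd1 start lies 95 bases beyond the Hspe1 start, within Hspe1.
Hspe1: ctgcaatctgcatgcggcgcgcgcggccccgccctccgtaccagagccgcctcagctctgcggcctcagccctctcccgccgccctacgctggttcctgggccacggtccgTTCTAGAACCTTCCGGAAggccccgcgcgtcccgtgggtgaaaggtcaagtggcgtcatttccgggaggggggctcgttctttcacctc
Capitals mark overlapping matches to 3 inverted units in a row, TTCNNGAANNTTC or its reverse complement GAANNTTCNNGAA, at -89 to -77 and -84 to -72 from the Hspe1 start site. The same letters lie at -144 to -127 from the former Hspd1 start site. A match to 3 units was found in 0.603% of the 32851 windows. Among the chaperones it was found at 4 of 11 start sites, in Hspd1, Hspe1 and Hsph1, in Hsph1 after the start site. Hspd1 and Hspe1 share their stretch, and both Hsph1 start sites have the same letters in their windows, so the 4 are not separate finds. These matches are letters, not measured binding.

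**Figure D2:**
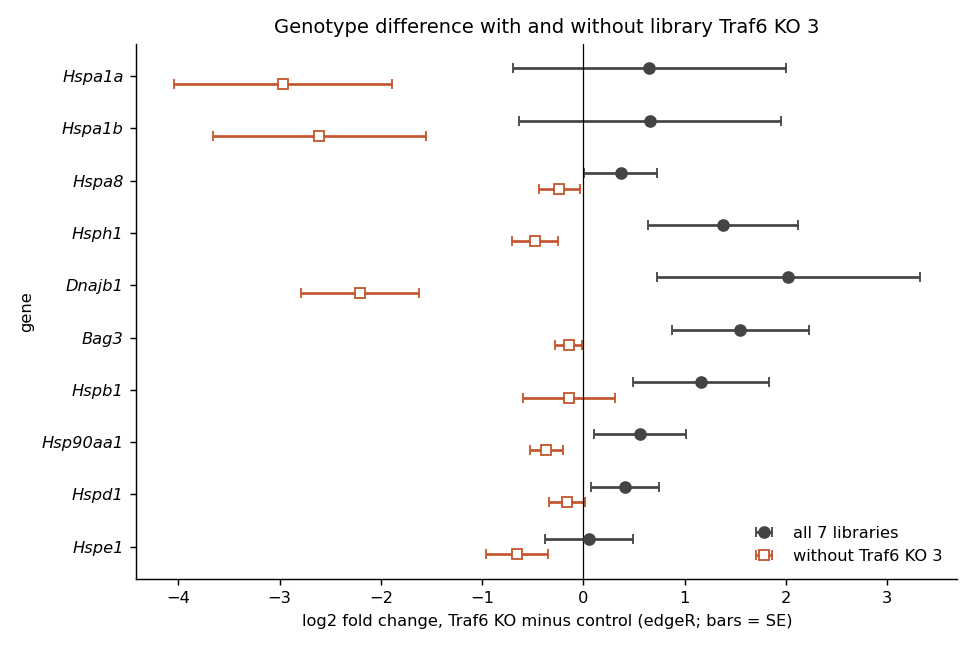
The log2 fold change of each chaperone, Traf6 KO minus control, from edgeR with all 7 libraries (filled circles) and without Traf6 KO 3 (open squares), with bars of 1 SE. All 10 filled circles lie above 0, from 0.06 to 2.02, and all 10 squares lie below 0, from -2.97 to -0.14.

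Without Traf6 KO 3 the 2 remaining Traf6 KO libraries were those rich in acinar transcripts. In that comparison 0 of the 10 passed, where edgeR called 4.24% of 16540 genes in either direction and 0.804% lower. An unadjusted p under 0.05 was found in 3 of 10 (Hspa1a, Hspa1b and Dnajb1), beside 23.5% of all genes. Both Traf6 KO libraries lay below every control in Hspa8, Dnajb1 and Hsp90aa1, 3 of 10 genes, beside 17.6% of all genes. Traf6 KO 1 was the lowest of all 7 libraries in 4 of the 10, beside 24.8% of all genes. Acinar content differed between the groups compared, so its part in these values cannot be told apart from that of genotype, and it was not tested. Hspa1a stood at 222 CPM in acinar-rich control 1 and at 994, 880 and 61.1 CPM in acinar-poor controls 2 to 4. With the acinar level as a covariate too, a fit added after the data were seen, 5 of the 10 were below 0 and 5 above. Hspa1a was at -0.42, Hspa1b at -0.03, Dnajb1 at -0.11, Bag3 at -0.44 and Hsph1 at -0.02, while Hspb1 was at 0.67, Hspe1 at 0.18, Hspa8 at 0.06, Hspd1 at 0.05 and Hsp90aa1 at 0.01. The smallest edgeR adjusted p among them was 0.8605.

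Among Q- and R-tagged libraries (3 control, 2 Traf6 KO) all 10 log2 fold changes were negative, from -0.09 for Bag3 to -3.34 for Hspa1a. In the S-tagged pair, with 1 library each and so no replicate, Traf6 KO 3 lay above control 4 by 1.29 on the log2 scale for Hspa8 up to 5.30 for Hspa1a. A genotype by tag-letter term, fitted by edgeR after Traf6 KO 3 had been seen to stand apart, compares that single pair with the others and is no evidence beyond the height of Traf6 KO 3. It passed for 0.0432% of tested genes and for Bag3 among the 10 (2.74 ± 0.24, edgeR adjusted p = 0.0479), with the spread within the S-tagged pair assumed to be that of the other libraries. Bag3 passed in 6 of 12 fits of the term. Control 4 shares the letter S but had 0.388 CPM of Xist and 0.236% of counts in the chaperones, while high Xist and the identity of Traf6 KO 3 cannot be told apart.

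**Figure D3:**
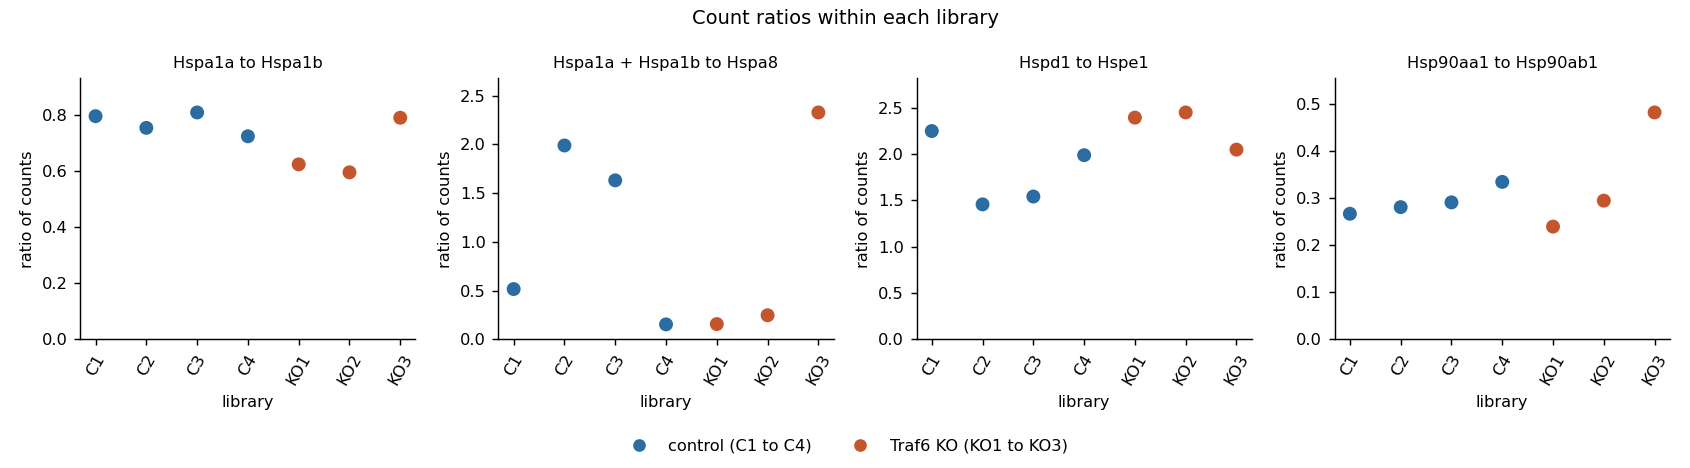
Ratios of raw counts between chaperone genes within each library, for 4 pairs, with blue points for controls and orange points for Traf6 KO libraries; each axis starts at 0. The ratio of Hspa1a and Hspa1b together to Hspa8 runs from 0.152 to 2.33, while that of Hspa1a to Hspa1b stays between 0.594 and 0.807.

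Ratios within a library do not depend on scaling. The inducible copies together against the constitutive Hspa8 gave 0.515, 1.99, 1.63 and 0.152 in controls 1 to 4 and 0.156, 0.246 and 2.33 in Traf6 KO 1 to 3. Both genotypes had libraries with more inducible than constitutive HSP70 counts and libraries with far fewer. The mean log2 ratio differed by -0.67 between genotypes (exact permutation p = 0.7429, adjusted over the 4 ratios 0.7429). For Hspd1 to Hspe1 the ratio was 2.25, 1.46, 1.54 and 1.99 in controls 1 to 4 and 2.40, 2.45 and 2.05 in Traf6 KO 1 to 3, a log2 difference of 0.36 (exact permutation p = 0.1143, adjusted 0.343). Hsp90aa1 to the constitutive Hsp90ab1 gave 0.267, 0.281, 0.291 and 0.335 in the controls and 0.240, 0.295 and 0.482 in Traf6 KO 1 to 3, a difference of 0.15 (exact permutation p = 0.6857, adjusted 0.7429). Hspa1a to Hspa1b gave 0.794, 0.752, 0.807 and 0.722 in the controls and 0.623, 0.594 and 0.788 in Traf6 KO 1 to 3, a difference of -0.21 (exact permutation p = 0.1714, adjusted 0.343). None of the 4 passed the exact test, and in each the genotypes overlapped. The difference exceeded the SD of both groups in Hspd1 to Hspe1 (0.30 in control and 0.14 in Traf6 KO) and the control SD, 0.07, in Hspa1a to Hspa1b.

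Levels between genes were compared per length of annotated exon. The median over libraries was 227 CPM per kb for Hspa8, 99.9 for Hspa1b, 85.2 for Hsp90aa1, 75.0 for Hspa1a, 56.7 for Hspd1, 45.2 for Hspe1, 28.9 for Dnajb1, 23.9 for Hspb1, 18.2 for Hsph1 and 9.04 for Bag3. This order is not fixed. In Traf6 KO 3, Hspa1b (1088 CPM per kb), Hspa1a (810) and Dnajb1 (593) exceeded Hspa8 (545), and in controls 2 and 3 Hspa1b (471 and 389) and Hspa1a (335 and 297) did so too (Hspa8 at 271 and 281). In control 4 and Traf6 KO 1 and 2, Hspa1b stood at 30.2, 31.7 and 49.6 CPM per kb, beside 222, 215 and 209 for Hspa8. The neighbours Hspa1b, Hsp90aa1 and Hspa1a overlap in their ranges, as do Hspd1 and Hspe1.

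Genes with the most similar pattern were sought by the root-mean-square difference of log2 CPM over the 7 libraries, each centred on its own mean. Beside each other, Hspa1a and Hspa1b (0.16) were closest to Dusp1, the gene of a phosphatase that switches off MAP kinases, and Fos, an immediate-early transcription factor (0.23 and 0.38 for Hspa1b, whose own spread was 1.93). Dusp1 stood at 52.3, 224, 208 and 21.1 CPM in controls 1 to 4 and at 23.3, 29.4 and 778 CPM in Traf6 KO 1 to 3. Dnajb1 was closest to Gm42937 and Klf2 (0.52 and 0.56, own spread 1.89). Hsph1 was closest to the J-domain gene Dnajb4 and to Snai2 (0.19 and 0.22, own spread 1.05), Bag3 to Snai2 and Maff (0.20 and 0.23, own spread 1.00), and Hspb1 to 4930426L09Rik and Btg2 (0.34 and 0.35, own spread 1.02). Hsp90aa1 was closest to Mxd1 and Klf10 (0.09 and 0.10, own spread 0.61) and Hspe1 to Gadd45g and Hdc (0.08 and 0.17, own spread 0.58). Hspa8 was closest to Gm15459 and Dnm3 (0.06 and 0.10, own spread 0.45), and Hspd1 to Hspa8 and the endoplasmic reticulum chaperone gene Hspa5 (both 0.12, own spread 0.46).

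**Figure D4:**
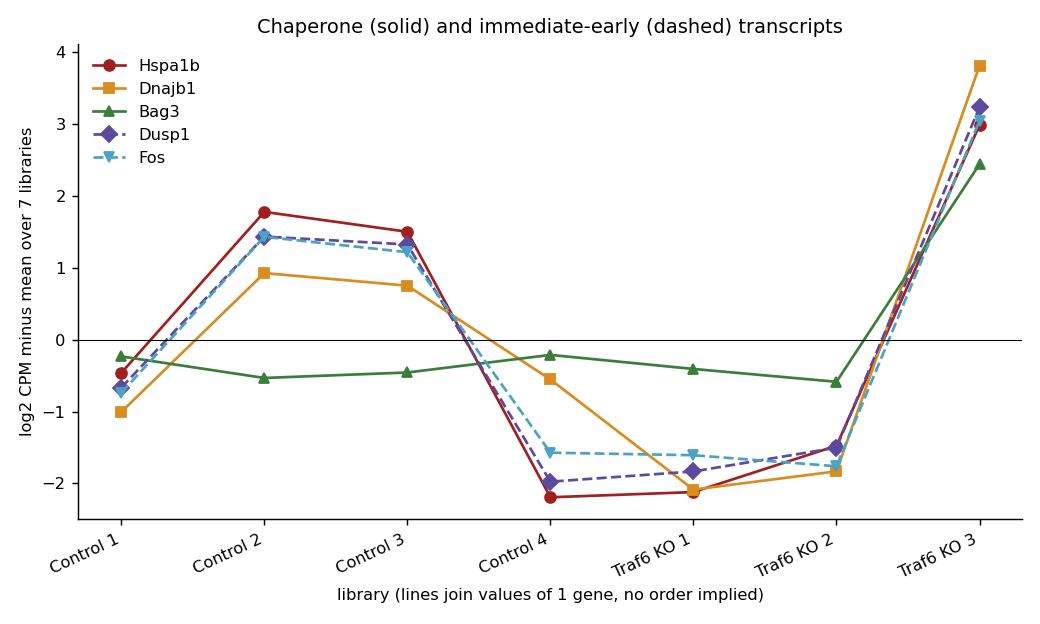
Pattern of 3 chaperone genes (solid lines) and 2 immediate-early genes (dashed lines) over the 7 libraries, as log2 CPM minus each gene's mean. Hspa1b, Dusp1 and Fos run together through all libraries, while Bag3 stays near its mean in 6 libraries and is high only in Traf6 KO 3.

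Immediate-early genes, transcribed within minutes of many stimuli, were highest in Traf6 KO 3 in most cases. Of the 22 listed, 21 were tested, 0 passed, and all 21 had a log2 fold change above 0 (median 1.03). Traf6 KO 3 was the highest library in 20 of the 21, and 20 of the 21 were at least 2-fold above the median of the others there. The exception was Myc. Fos stood at 193, 868, 748 and 109 CPM in controls 1 to 4 and at 106, 95.3 and 2655 CPM in Traf6 KO 1 to 3, so controls 2 and 3 were again high. In 16 of the 21, Traf6 KO 3 was the highest and controls 2 and 3 the next, an order that 9 of the 10 chaperones (all but Bag3) and 2.61% of all tested genes had. It was chosen after the values were seen. The other 5 were Fosl2, Egr2, Egr3, Nr4a1 and Myc, and Nr4a1 stood at 309 CPM in control 4 against 155 and 171 in controls 2 and 3. Egr3, Egr2 and Atf3, those with the smallest p, had log2 fold changes of 3.73 ± 1.34, 3.43 ± 1.29 and 3.44 ± 1.68 (edgeR adjusted p = 0.259, 0.268 and 0.357), and each was below 0 without Traf6 KO 3 (-0.17, -0.14 and -0.86). The part of islet handling in either gene group was not tested.

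The wider set of 23 genes known to be HSF1-inducible holds the 10 chaperones and 13 others. Of the 23, 0 passed, 19 had a log2 fold change above 0 (median 0.56), and Traf6 KO 3 was the highest library in 19, or 9 of the 13 others. Of these 13, 4 were at least 2-fold above the median of the other libraries in Traf6 KO 3. They were Dnaja1, a J-domain protein, at 741 CPM against 132 to 244 elsewhere, Dnajb4 at 238 against 23.9 to 39.5, Serpinh1, a collagen chaperone, at 71.9 against 17.7 to 25.1, and the small heat-shock gene Hspb8 at 27.5 against 10.5 to 19.3. Several others did not stand out there. Ahsa1, an activator of HSP90, stood at 65.8 CPM in Traf6 KO 3 and at 66.3 to 79.2 CPM elsewhere, Fkbp4 at 202 against 221 to 264, Stip1 at 100.6 against 82.1 to 96.8, and the HSP110-type gene Hspa4l at 41.0 against 31.7 to 44.7. Cryab, a small heat-shock protein, ran differently: 6.62, 1.06, 0.936 and 1.73 CPM in controls 1 to 4 and 29.9, 13.7 and 1.39 CPM in Traf6 KO 1 to 3. Its 3 highest libraries were the 3 rich in acinar transcripts, and its log2 fold change was 2.52 ± 1.00 (edgeR adjusted p = 0.283). Adding the acinar level as a term brought it to 0.17, and it was 0.16 without the 3 acinar-rich libraries.

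**Figure D5:**
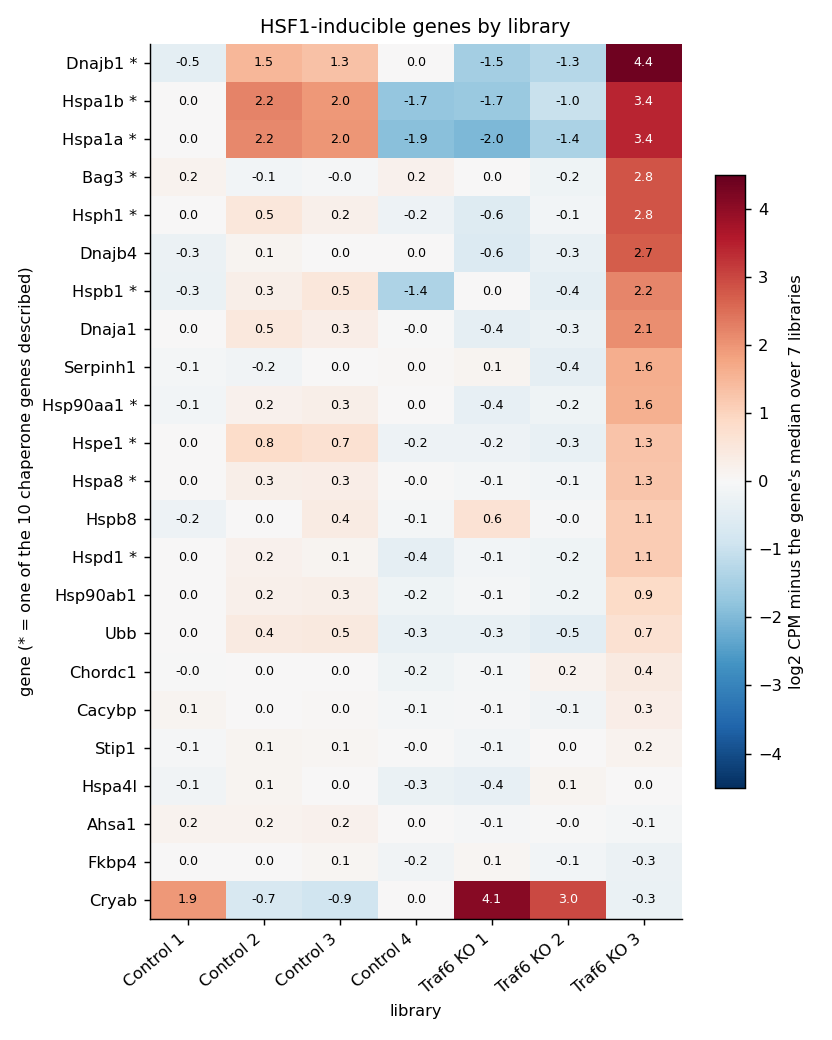
Level of 23 HSF1-inducible genes in each library, as log2 CPM minus the gene's median over the 7 libraries (red above, blue below), ordered by Traf6 KO 3; asterisks mark the 10 chaperones described. Dnajb1, Hspa1b and Hspa1a lead the Traf6 KO 3 column and are also red in controls 2 and 3, while Cryab is red in the acinar-rich libraries.

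The rest of the chaperone network was described by lists, which include the 10 where they belong, and edgeR called 0 genes in each. Among 11 HSP70 and HSP110 genes the median log2 fold change was 0.25 with 8 above 0, and Hspa12a and Hspa2 stood at 0.25 ± 0.24 and -0.13 ± 0.18. Among 18 J-domain genes it was 0.06 with 11 above 0. Dnajc2, at -0.22 ± 0.11, Dnajb4, at 1.45 ± 0.73, and Dnaja4, at 1.14 ± 0.60, had the smallest p (edgeR adjusted p = 0.363, 0.368 and 0.383). Dnaja4 was 494 CPM in Traf6 KO 3 against 77.3 to 131 CPM elsewhere. Among 16 genes of HSP90 and its co-chaperones the median was -0.05 with 6 above 0. Ahsa1 stood at -0.19 ± 0.09, Chordc1 at 0.22 ± 0.13, the p23 gene Ptges3 at -0.19 ± 0.11 and Hsp90ab1 at 0.19 ± 0.31. In Ahsa1 the 4 controls averaged 76.1 ± 4.49 CPM and the 3 Traf6 KO libraries 66.7 ± 1.11 CPM, with no overlap. It was the 1 gene of these 16 with every Traf6 KO library below every control, beside 8.68% of all tested genes.

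Of 9 small heat-shock genes 6 were tested (median 0.20, 3 above 0), among them Hspb11 at -0.43 ± 0.18 and Hspb8 at 0.64 ± 0.27. Hspb11 was lower in every Traf6 KO library than in every control, 1 of these 6, beside 8.68% of all tested genes. Of 13 BAG and HSP70-linked quality-control genes 8 lay above 0 (median 0.08). Sgta, which hands membrane proteins to their insertion route, was lower in every Traf6 KO library (69.5 ± 3.59 and 56.6 ± 3.75 CPM, n = 4 and 3, log2 fold change -0.30 ± 0.09), and the ubiquitin shuttle gene Ubqln1 was higher in every one (85.0 ± 5.41 and 105 ± 9.82 CPM, 0.30 ± 0.11, edgeR adjusted p = 0.223 and 0.249). Such separation was found for 1 of these 13 in each direction, beside 8.68% (below) and 5.58% (above) of all tested genes. The Ubqln1 value turned to -0.20 with library totals as the only scaling. Hspbp1, an inhibitor of HSP70 nucleotide cycling, stood at -0.25 ± 0.14. Of 14 chaperonin and prefoldin subunits, which fold actin and tubulin, 9 lay below 0 (median -0.09), with Pfdn4 at -0.39 ± 0.14, Pfdn2 at -0.30 ± 0.12 and Cct3 at -0.21 ± 0.10. Pfdn4 and Pfdn2 were lower in every Traf6 KO library than in every control, 2 of these 14, beside 8.68% of all tested genes. Traf6 KO 3 was the highest library in 0 of these 14, beside 21% of all genes. Of 18 mitochondrial chaperones and proteases 13 lay above 0 (median 0.07), with the exchange factor gene Grpel2 at 0.45 ± 0.16 (edgeR adjusted p = 0.251), Clpb at 0.29 ± 0.16 and Clpx at 0.33 ± 0.19. Traf6 KO 3 was the highest in 2 of these 18, which were Hspd1 and Hspe1.

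The heat-shock factor genes themselves varied little. Hsf1 stood at 27.98, 36.95, 30.05 and 28.8 CPM in controls 1 to 4 and at 23.4, 29.0 and 33.7 CPM in Traf6 KO 1 to 3, so its log2 fold change of -0.11 ± 0.15 missed the threshold (edgeR adjusted p = 0.771). Hsf2 averaged 21.4 ± 1.56 CPM over the 4 controls and 19.97 ± 4.45 CPM over the 3 Traf6 KO libraries, with -0.10 ± 0.15 (edgeR adjusted p = 0.793). Hsf4 was at -0.20 ± 0.18 and the HSF1-binding gene Hsbp1 at -0.26 ± 0.13. Transcript levels of Hsf1 do not show its activity, which depends on the protein's release and phosphorylation.

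Markers of other cell types were read beside these results. The acinar list ranged from 5.60 to 10.9 over controls and from 7.17 to 13.3 over Traf6 KO libraries on the log2(CPM + 1) scale. Traf6 KO 3, at 7.17, lay among the acinar-poor libraries, as did controls 2, 3 and 4 at 5.64, 5.60 and 8.02. Of these, control 4 was low in Hspa1a and Hspa1b. Macrophage markers averaged 3.15 to 4.82 and 2.79 to 3.62, with Traf6 KO 3 at 3.37. Lymphocyte markers averaged 0.706 to 2.66 and 1.66 to 3.18, with Traf6 KO 3 the highest, and Schwann cell markers 2.02 to 2.29 and 1.78 to 2.68, again with Traf6 KO 3 the highest. Endothelial markers averaged 5.15 to 5.45 and 4.92 to 5.21, fibroblast and stellate markers 2.29 to 3.36 and 2.71 to 4.19, and ductal markers 3.65 to 4.55 and 3.93 to 5.50. Alpha-cell markers averaged 6.12 to 6.69 and 6.15 to 6.80, and delta and gamma-cell markers 6.85 to 7.19 and 6.67 to 7.32. In both of these lists too Traf6 KO 3 was the highest. Beta-cell markers averaged 10.38 to 10.56 and 9.998 to 10.25, the only list here whose genotype ranges did not overlap. No marker was at 0 in all libraries, and the part of cell makeup in the chaperone levels was not tested.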

How the data were processed

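Counts per gene of 7 islet libraries (4 control, 3 Traf6 KO) were analysed. The authors deposited whole-number counts, 1 column per library and not normalized, and the submitters' processing notes list STAR 2.6.1b, RSEM 1.3.1, FastQC and GRCm38 without saying how each was used, so the counts may be rounded model estimates. The annotation, strand setting and filters behind them are not stated. Libraries were assigned from their names in the labels, and each was taken as 1 mouse. If not, p-values measure only the spread between these samples.

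Counts were fitted with edgeR 4.0.16 in R 4.3.3 (quasi-likelihood F test, TMM, filterByExpr with a minimum count of 10 and total of 15, Benjamini-Hochberg over all genes tested, threshold 0.05), with genotype as the only term. SE is the fold change over the root of F. DESeq2 1.42.0 and limma 3.58.1 served as alternatives. Sums and ratios were tested by exact two-sided permutation over the 35 assignments of 7 libraries. The tests were checked on simulated data. Of 55487 identifiers 55141 matched GENCODE M21 on GRCm38, the source of coordinates and exon lengths. The chi-square per gene was at least 21.8 for every pair of libraries, so all 7 were counted as separate samples. The members and lists were chosen with earlier results of these data known. Named are Traf6, the 10 members, Hsf1, Hsf2, Hsp90ab1, the 3 other genes with the smallest p in each list and the 2 nearest patterns of each member. One gene of the HSF1 list is not reported here and was left out of its counts after the data were seen. Further genes were named after their values were seen.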

Additional observations from a re-analysis of the deposited data

Results flagged for a closer look

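Bag3 met the test of a genotype effect that differs between tag letters in 6 of 12 fits. Its effect was -0.09 ± 0.13 among Q- and R-tagged libraries and 2.65 in the S-tagged pair, on the log2 scale. The test of the difference itself, the genotype by tag-letter term of edgeR over 7 libraries, gave 2.744 (SE 0.243, adjusted p = 0.0479). Over the one given and 11 alternatives the value ran from 2.62 to 3.74 and the adjusted p from 1.56e-05 to 0.179. With 1 library of each genotype in the S series, the value rests on the single pair of control 4 and Traf6 KO 3, and the term was chosen after that library had been seen to stand apart. It restates the height of Traf6 KO 3 and shows no difference between series.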

How the results depend on the processing

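All 10 chaperones turned below 0 without Traf6 KO 3, but 5 of the 10 lay above 0 when the acinar covariate was added to that fit. With all libraries kept, 9 of the 10 turned with quality weights and 4 each with limma-voom and the tag letter term. With the replicate block, which leaves out control 4, 4 turned. The number of genes called between genotypes was 0 and became 636 with the DESeq2 Wald test (440 higher, 196 lower), 1046 with limma-voom and quality weights, 5 with the replicate block, 3 with the acinar covariate and 67 when control 1 and Traf6 KO 1 and 2, rich in acinar transcripts, were left out together, and ran from 0 to 701 when libraries were left out singly, 701 without Traf6 KO 3. The number of chaperones called was 0 in each alternative but the one without the 3 acinar-rich libraries, which leaves 1 Traf6 KO library assumed to vary like the controls, where 2 were called (Hsph1 at 2.62 and Bag3 at 2.83). DESeq2 gave an adjusted p for 7 of the 10. The counts for the tag-letter interaction, given next, rest on 1 library of each genotype in the S series. The share of all tested genes called is given for its main fit alone. The counts from its other fits therefore have no background to be read against. In the tag-letter interaction 1 chaperone was called, against 0 with upper-quartile factors, 6 with library totals, 0 with limma-voom, 9 with no low-count filter and from 0 to 9 with single libraries left out (9 without control 1). Leaving out single libraries moved log2 fold changes over these ranges, with the low end without Traf6 KO 3 in the chaperones: Hspa1a -2.97 to 1.19, Hspa1b -2.61 to 1.18, Hspa8 -0.24 to 0.60, Hsph1 -0.48 to 1.84, Dnajb1 -2.20 to 2.57, Hspb1 -0.14 to 1.56, Hsp90aa1 -0.37 to 0.88, Hspd1 -0.16 to 0.64, Hspe1 -0.66 to 0.33 (also below 0 without control 1 or 4), Bag3 -0.14 to 1.98, Hspa12a -0.12 to 0.48, Hspa1l -2.26 to 1.65, Hspa2 -0.30 to 0.026, Dnajb4 -0.44 to 1.90, Dnaja4 -0.20 to 1.54, Hsp90ab1 -0.23 to 0.39, Hsf1 -0.24 to 0.025, Hsf2 -0.30 to 0.0065, Cryab 1.56 to 3.62, Egr3 -0.17 to 4.27, Egr2 -0.14 to 3.98 and Atf3 -0.86 to 4.11. Other settings turned these signs. Library totals: Hspe1 -0.16, Hspa12a -0.052, Chordc1 -0.18, Ubqln1 -0.20, Grpel2 -0.11, Clpb -0.28, Clpx -0.26, Hsp90ab1 -0.092. Limma-voom: Hspa1a -0.67, Hspa1b -0.47, Dnajb1 -0.13, Hspe1 -0.059. Quality weights: Hspa1a -2.18, Hspa1b -1.86, Hspa8 -0.18, Hsph1 -0.14, Dnajb1 -1.56, Hspb1 -0.090, Hsp90aa1 -0.19, Hspd1 -0.12, Hspe1 -0.61, Hspa1l -1.52, Hspa2 0.046, Dnajb4 -0.027, Egr2 -0.63, Atf3 -0.83, Hsp90ab1 -0.23. Tag letter S as a term: Hspa1a -1.94, Hspa1b -1.59, Dnajb1 -1.04, Hspe1 -0.14, Hspa1l -0.34. Q- and R-tagged libraries only: Hspa1a -3.34, Hspa1b -2.98, Hspa8 -0.29, Hsph1 -0.59, Dnajb1 -2.39, Hspb1 -0.40, Hsp90aa1 -0.39, Hspd1 -0.28, Hspe1 -0.81, Bag3 -0.094, Hspa12a -0.10, Hspa1l -2.60, Dnajb4 -0.42, Dnaja4 -0.31, Egr2 -0.20, Atf3 -1.26, Hsp90ab1 -0.32. Acinar covariate: Hsf1 0.092, Hsf2 0.094. Without the 3 acinar-rich libraries: Ptges3 0.018, Clpb -0.0092, Clpx -0.093, Hsf1 0.068, Hsf2 0.17. Acinar covariate with Traf6 KO 3 left out, added after the data were seen: Traf6 0.12, Hspa1a -0.42, Hspa1b -0.028, Hsph1 -0.016, Dnajb1 -0.11, Bag3 -0.44, Hspa1l -1.77, Dnajb4 -0.081, Hsf1 0.065. Each of these turned values missed the threshold, and apart from the libraries left out the cause was not tested.

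The log2 difference of the summed Hspa1a and Hspa1b level (-0.44) ran from -2.09 to 0.53 with single libraries left out and was 2.64 without the 3 acinar-rich libraries. The ratio of Hspa1a plus Hspa1b to Hspa8 ran from -1.86 to 0.091 and was 1.56 there, and that of Hspa1a to Hspa1b was 0.053 there. Hsp90aa1 to Hsp90ab1 ran from -0.14 to 0.37 and was -0.072 among Q- and R-tagged libraries. With the replicate block, on libraries 1 to 3 of each genotype, Hspa1a was -1.53, Hspa1b -1.25, Dnajb1 -0.50, Hspe1 -0.25 and Hspa1l -0.47, and no chaperone was called. Same-numbered libraries correlated at 0.443, -0.0768 and 0.41 in their deviations. Differently numbered pairs were not computed for comparison, so these values cannot decide whether a shared number marks a pairing.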
